A study of Homo sapiens with 24 samples.

Results

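RBMS3 cells and LacZ cells were compared as they stood before actinomycin D, across all genes. The members were the 6 libraries labelled 0 min, 3 of RBMS3 cells and 3 of LacZ cells, out of 24 libraries in the series, and they were chosen by sample label alone. Both lines came from HMLE, a line of human mammary epithelial cells immortalized in culture. RBMS3 cells expressed the RNA-binding protein RBMS3, and LacZ cells expressed the bacterial enzyme LacZ and served as the control. Both lines grew in the same serum-containing DMEM and Ham's F12 medium with EGF, insulin and hydrocortisone. The other libraries came from the same lines after 90, 180 or 360 min of actinomycin D, a blocker of transcription, at 10 µg/mL. The labels do not say whether a line was a clone or a pool, which promoter drove the construct, how long the cells had been in culture, or whether the 3 libraries of a line came from separate cultures. The p-values therefore cover the spread among libraries only, and part of it may be technical. That spread was estimated for each gene from all 24 libraries, including those after actinomycin D.

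The series title places RBMS3 in the epithelial-mesenchymal transition (EMT) of breast cancer, and the comparison at 0 min asks how the lines differ at steady state. In EMT, cells that are held in a sheet by junctions and anchored to a basement membrane give up those contacts and take on the matrix, cytoskeleton and motility of mesenchymal cells. Repressors such as ZEB1, ZEB2, SNAI1 and SNAI2 bind short E-box sequences in the promoters of epithelial genes and shut them off. RBMS3 belongs to a small family of proteins that bind AU-rich stretches of RNA, mostly in the cytoplasm.

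Libraries were made from the 3' ends of polyadenylated RNA, so reads come from the tail of a transcript. Values below are the authors' normalized counts. Their ratio to the estimated reads is not the same for every gene of a library, so the scaling was not by 1 factor per library, and how it was done is not given in the labels. Differences are RBMS3 minus LacZ on the scale of log2(normalized count + 1), and were tested with limma over 12096 genes. A gene is called higher or lower only where its Benjamini-Hochberg adjusted p in limma was under 0.05. Only genes with a mean of at least 10 over all 24 libraries were tested. A gene near 0 in 1 line could thus enter only through its level in the other line. Counts and medians of gene lists are therefore partly fixed by this filter. Where every library of a line was at 0, the fold is a lower bound against a floor of 3 reads per library, each at the usual value of 1 read in that library. In bulk RNA, fewer cells of a type and less RNA per cell cannot be told apart.

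The lines differed widely. Of the tested genes, 2250 were higher in RBMS3 cells (18.6%) and 2284 were lower (18.9%), and the median difference over all of them was 0.01. The difference reached 3 or more on the log2 scale in 279 higher genes (2.31%) and 321 lower genes (2.65%), and 7 or more in 21 higher and 26 lower genes. Those 279 genes held 2.05% to 2.13% of the normalized counts of an RBMS3 library, against 0.138% to 0.145% of a LacZ library. The 321 genes held 0.085% to 0.0906% of an RBMS3 library, against 1.44% to 1.51% of a LacZ library. When each library was instead scaled to the sum of its ribosomal protein genes, the median difference became -0.29, and 1345 genes were higher and 3816 lower, so that 26.1% of the calls were higher in place of 49.6%. Of the called genes named below, MT-CO1, PLEC and KRT7 had another direction under that scaling, and RBMS1, QKI, DST, ERRFI1, IGF1R, CDKN2A, EGR1 and E2F5 did not pass. The 6 libraries fitted alone gave 1486 higher and 1578 lower genes, and 10 of the genes named as higher or lower below did not pass there (RBMS1, RBMS2, DSG3, QKI, PLEC, KRT7, CCN1, IGF1R, CDKN2A and MT-CO1).

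**Figure D1:**
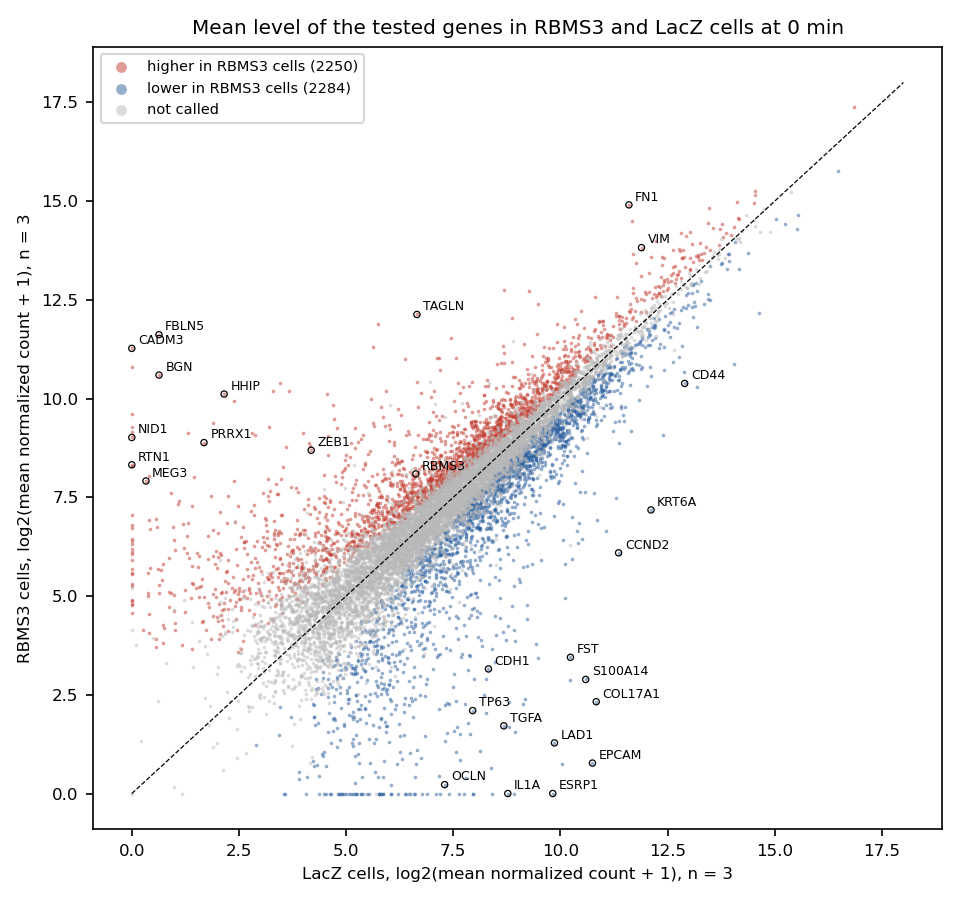
Mean level of each tested gene in RBMS3 cells (vertical axis) against LacZ cells (horizontal axis) at 0 min, both as log2(mean normalized count + 1) of 3 libraries. Red points are the 2250 genes called higher in RBMS3 cells, blue points the 2284 called lower and grey points the rest, with 2 genes that are not reported left out. The dashed line marks equal levels, and named genes such as CADM3 and ESRP1 lie on the axes because 1 line was at 0.

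The 6 libraries held roughly 6391527 to 8009824 reads each, from the table's sum and its usual value of 1 read, and 15090 to 15697 genes above 0. RBMS3 libraries correlated with each other across genes at a Pearson r of 0.941 to 0.947, and libraries of different lines at 0.762 to 0.801. LacZ replicate 2 stood apart, with an r of 0.909 and 0.911 to the other LacZ libraries, which had 0.954 with each other. In it, 33 genes were over 4-fold above both other LacZ libraries and 162 were over 4-fold below both, against 9 to 29 genes in each direction for any other library. Of these 195 genes, 183 also had estimated reads, and 128 of them stood over 4-fold apart in the reads too. The urokinase gene PLAU shows such a case, with 2756, 46 and 2699.6 normalized counts in the LacZ libraries and 3327, 45 and 2733 estimated reads. GRHL2 shows the other kind, with 139, 456 and 150.3 normalized counts but 194, 149 and 188 estimated reads. Without LacZ replicate 2, limma called 2022 genes higher and 2202 lower. Results that rest on that library are given with and without it. Calls of IGF2BP1, IGF2BP3, RBMS1, RBMS2, DSG3, DST, DDR2 and TBX18 did not pass without 1 of the other libraries, with limma adjusted p of 0.050 to 0.10.

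The RBMS3 transcript had 358, 254 and 203 in the RBMS3 libraries and 75.7, 101 and 116 in the LacZ libraries. All RBMS3 libraries lay above all LacZ libraries, and the difference was 1.45 ± 0.39 (SE) with a limma adjusted p of 0.0061. Reads from the 3' end capture the introduced sequence only where its tail matches that of the cell's own transcript. The labels do not describe that tail, so the check of the label is limited. PRRX1, a homeobox factor of mesenchymal cells, had 484, 491 and 440.1 in RBMS3 cells, against 6.64, 0 and 0 in LacZ cells. Among 13 other tested RNA-binding proteins of the RBMS family and its neighbours in function, 2 were higher and 7 lower. Of all tested genes 18.6% were higher and 18.9% lower. RBMS1 was higher and RBMS2 lower, with log2 differences of 0.74 and -0.53. IGF2BP1 and IGF2BP3, which stabilise bound mRNAs, were lower, with log2 differences of -1.37 and -0.79. LIN28B, which blocks the maturation of let-7 microRNAs, was at 0 in every RBMS3 library and at 34.1, 14.6 and 37.7 in the LacZ libraries. Without LacZ replicate 2 RBMS3 was the 1 higher gene of the whole list and 6 were lower. RBMS1 (limma adjusted p = 0.093) no longer passed there.

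Most tested genes of tight junctions and polarity were lower in RBMS3 cells. Tight junctions seal neighbouring epithelial cells, and polarity proteins keep their upper and lower surfaces distinct. Of 33 listed genes of tight junctions and polarity 22 were tested. Limma called none of these higher, also at an unadjusted p under 0.05, and 19 lower. Their median difference was -3.83, against 0.01 for all genes. A gene near 0 in RBMS3 cells could enter the test only through its level in LacZ cells. EPCAM, an adhesion molecule of epithelial surfaces, had 0, 0 and 2.12 in the RBMS3 libraries, against 1687, 1747 and 1714 in the LacZ libraries. MAL2, which carries proteins to the apical membrane, had 0, 0 and 2.05 normalized counts in RBMS3 cells, against 1093, 913 and 1117 in LacZ cells. OCLN, the tight junction protein occludin, had 0.506, 0 and 0 in the RBMS3 libraries and 119, 189 and 160.5 in the LacZ libraries, and the claudin gene CLDN4 had 0, 0.943 and 0 in RBMS3 cells, against 269, 139 and 256 in LacZ cells. In each of these genes the groups were far apart, with the RBMS3 libraries at or near 0. CLDN7 kept a low level, at 10.6, 31.5 and 36.7 in the RBMS3 libraries, against 645, 442 and 707 in the LacZ libraries, a difference of -4.60. TJP1, the scaffold that ties tight junctions to actin, had 1104, 1032 and 997 normalized counts in RBMS3 cells, against 1222, 1029 and 657 in LacZ cells, and did not pass the test (limma adjusted p = 0.57).

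AP1M2, the epithelial subunit of a clathrin adaptor, had no reads in any RBMS3 library and 370.5, 251 and 391 normalized counts in the LacZ libraries, at least 111-fold lower. RAB25, a small GTPase of recycling endosomes, was at 0 in every RBMS3 library and at 222, 288 and 234 in the LacZ libraries, at least 81.5-fold lower. The polarity gene CRB3 was at 0 in RBMS3 cells and at 67.2, 9.83 and 58.5 in LacZ cells, at least 14.8-fold lower, with LacZ replicate 2 below the other LacZ libraries. TMEM30B, a subunit of enzymes that move lipids across membranes, was at 0 in every RBMS3 library and averaged 145 ± 39.4 in LacZ cells (SD, n = 3), at least 47.6-fold lower. LAD1, an anchoring filament protein of the basement membrane, had 4.29, 0 and 0 in the RBMS3 libraries and 869, 951 and 965 in the LacZ libraries. LLGL2, F11R and MARVELD3, which code for a polarity protein, a junctional adhesion molecule and a relative of occludin, were lower, with log2 differences of -3.93, -2.96 and -5.28.

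The promoters of 5 of these genes are shown because they hold the E-box that ZEB and SNAI proteins bind, most of them more than once. The stretches are the 250 bases before the start site, on the coding strand, from RefSeq on GRCh38.p14, with CAGGTG and its reverse complement CACCTG in capitals. They lie at chr19:6464021-6464270 (plus strand) for CRB3, chr19:10587313-10587562 (minus strand) for AP1M2, chr14:61281339-61281588 (minus strand) for TMEM30B, chr1:156060910-156061159 (plus strand) for RAB25 and chr1:201399325-201399574 (minus strand) for LAD1. The genes were chosen after their values and promoters were seen.
CRB3: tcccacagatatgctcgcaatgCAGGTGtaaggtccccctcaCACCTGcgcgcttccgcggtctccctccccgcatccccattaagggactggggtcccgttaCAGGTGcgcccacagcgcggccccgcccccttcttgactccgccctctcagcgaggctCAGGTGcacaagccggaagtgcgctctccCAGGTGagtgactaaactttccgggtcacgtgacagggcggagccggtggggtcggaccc
AP1M2: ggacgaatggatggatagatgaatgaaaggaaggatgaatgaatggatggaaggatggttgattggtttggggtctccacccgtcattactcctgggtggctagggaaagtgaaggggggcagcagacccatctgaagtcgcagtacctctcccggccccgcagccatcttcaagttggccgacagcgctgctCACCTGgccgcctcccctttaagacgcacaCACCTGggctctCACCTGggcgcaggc
TMEM30B: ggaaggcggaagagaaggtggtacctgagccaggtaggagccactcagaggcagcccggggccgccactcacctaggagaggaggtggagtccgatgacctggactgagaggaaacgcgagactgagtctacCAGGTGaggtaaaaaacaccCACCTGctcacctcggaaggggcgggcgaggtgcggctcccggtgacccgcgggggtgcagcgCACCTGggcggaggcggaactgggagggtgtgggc
RAB25: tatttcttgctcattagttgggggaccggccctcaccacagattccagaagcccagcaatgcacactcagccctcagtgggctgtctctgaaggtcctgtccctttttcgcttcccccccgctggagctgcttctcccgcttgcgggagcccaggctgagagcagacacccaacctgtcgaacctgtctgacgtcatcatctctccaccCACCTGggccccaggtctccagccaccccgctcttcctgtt
LAD1: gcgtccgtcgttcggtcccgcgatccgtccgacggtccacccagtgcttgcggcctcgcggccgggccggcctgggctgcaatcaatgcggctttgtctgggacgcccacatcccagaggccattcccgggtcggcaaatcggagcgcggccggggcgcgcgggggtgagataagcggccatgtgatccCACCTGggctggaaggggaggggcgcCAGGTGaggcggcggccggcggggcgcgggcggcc
CRB3 has 5 matches in this stretch, AP1M2 and TMEM30B have 3 each, LAD1 has 2 and RAB25 has 1. A match is a sequence of letters and no evidence that a protein binds there.

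Over the whole contrast the same E-box was more common in promoters of strongly lower genes. The window for this count ran from 250 bases before to 50 after the start site, on both strands, for the 9551 tested genes with a promoter in the RefSeq table. CAGGTG or CACCTG was present in 17.9% of these promoters, and in 20.6% of all 27305 promoters in that table. It was present in 38.1% of 63 promoters of genes lower by 5 or more on the log2 scale, in 40.6% of 160 promoters of genes lower by 3 to 5, and in 22.2% of 582 lower by 1 to 3. The share was 17.5% in genes lower by under 1, 17.1% in genes not called, and 14.6% of 212 in genes higher by 3 or more. At least 2 copies were found in 9.87% of the promoters of genes lower by 3 or more, against 2.47% of all tested. Other E-box sequences were counted too. In genes lower by 3 or more, CAGCTG was present in 22.0% of promoters, against 16.5% of all tested, and CACGTG in 5.38%, against 10.2%. The share with CAGGTG or CACCTG varied with GC content. For genes lower by 3 or more against all tested genes, it was 47.9% against 19.1% among promoters with 60% to 70% GC. Under 50% GC it was 23.5% against 12.7%. The median GC content was 65% in genes lower by 3 or more and 65.3% in all tested. These shares describe the promoters, and no factor's binding was measured.

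**Figure D2:**
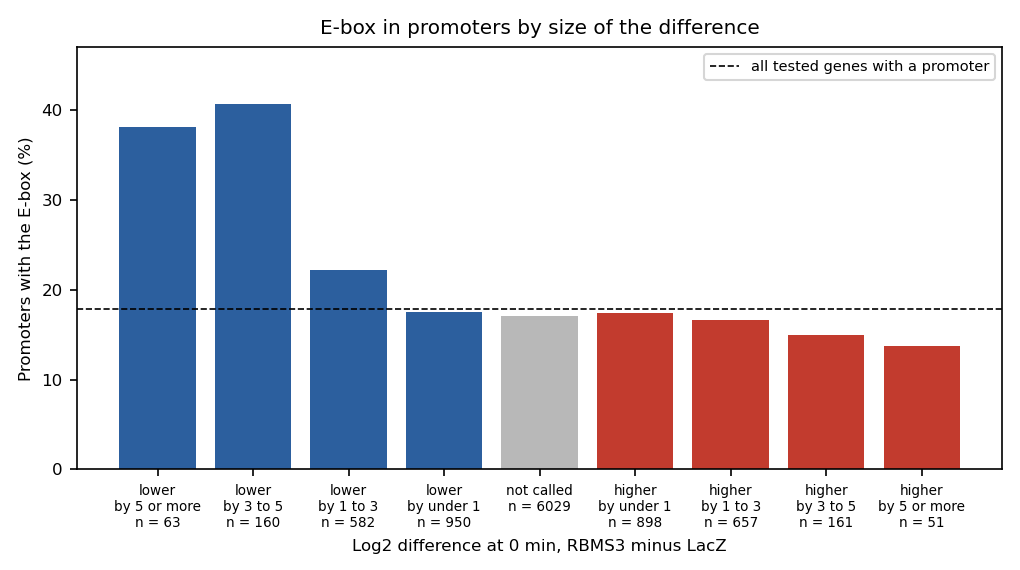
Share of promoters (percent, vertical axis) that hold CAGGTG or CACCTG within 250 bases before to 50 after the start site, by size class of the log2 difference at 0 min. The number of promoters (n) is given under each class, and the dashed line is the 17.9% of all tested genes with a promoter. The classes lower by 3 to 5 and by 5 or more stand at 40.6% and 38.1%.

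Cadherins and their partners hold adherens junctions together. Of 15 tested adherens junction genes 3 were higher and 7 lower, with a median of -0.06. The higher share is near the 18.6% of all tested genes, of which 18.9% were lower. CDH1, the epithelial E-cadherin, had 8.6, 15.1 and 0 in RBMS3 cells, against 379.6, 146 and 429.8 in LacZ cells, a difference of -5.75 ± 0.80 (SE). CDH3, or P-cadherin, had 83, 86.1 and 88.8 in the RBMS3 libraries, against 1503, 1053 and 1796 in the LacZ libraries. JUP, or plakoglobin, which links cadherins and desmosomal cadherins to the cytoskeleton, had 49.3, 50.5 and 77.5 normalized counts in RBMS3 cells, against 914, 336 and 991 in LacZ cells. In all 3 genes LacZ replicate 2 was the lowest of its line, and they were named under the condition that the lines do not overlap. CDH2, the N-cadherin of mesenchymal and neural cells, went the other way, with 2170.5, 2230.2 and 2078 in the RBMS3 libraries and 823, 733 and 766 in the LacZ libraries (1.48). CDH4 and the nectin gene NECTIN3 were also higher, by 2.19 and 1.86. The catenin genes CTNNB1 and CTNND1, whose products bind cadherins inside the cell, did not pass. CTNNB1 averaged 1141 ± 75.1 in RBMS3 cells and 1072 ± 166 in LacZ cells (SD, n = 3 each).

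Desmosomes and hemidesmosomes fasten cells to each other and to the basement membrane, and most of their genes were lower in RBMS3 cells. Of 11 tested desmosome genes limma called none higher, also at an unadjusted p under 0.05, and 8 lower (median -1.27). DSG3, DSC2 and PERP had log2 differences of -3.48, -3.04 and -3.13, with DSG3 at -2.13 without RBMS3 replicate 3 (limma adjusted p = 0.050). DSP, the plaque protein desmoplakin, kept a high level, with 1798, 1864 and 1675 in RBMS3 cells, against 3992, 5039.6 and 4115 in LacZ cells. All 10 genes of epithelial laminin and the hemidesmosome were called, 3 higher and 7 lower. COL17A1, a transmembrane collagen of the hemidesmosome, had 0, 2.96 and 9.07 in the RBMS3 libraries, against 1989.9, 1329 and 2153 in the LacZ libraries. LAMA3, the alpha chain of that laminin, had 13.7, 56.4 and 19.8 normalized counts in RBMS3 cells, against 1083, 1218 and 1014 in LacZ cells. The beta chain LAMB3 averaged 471 ± 9.94 in RBMS3 cells and 2637 ± 321 in LacZ cells (SD, n = 3 each). These chains thus fell unevenly, with log2 differences of -5.41 and -2.48. The higher members were the linker genes PLEC (0.30) and DST (0.83) and the tetraspanin CD151 (1.20). Scaled to the ribosomal protein genes, 1 member was higher and 7 were lower.

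Keratins split by member. KRT6A and KRT6B, keratins of stressed and healing epithelium, were lower in RBMS3 cells. KRT6A had 133, 181 and 118 in the RBMS3 libraries and 4574, 3842 and 4855 in the LacZ libraries, and KRT6B had 0, 5.66 and 0 in RBMS3 cells, against 177, 185 and 127 in LacZ cells. KRT18 and KRT8, the pair of simple epithelia, were lower, with log2 differences of -2.45 and -0.71. KRT14, a basal keratin, was higher (1.26), at 6168, 6108 and 5902 in the RBMS3 libraries, against 2133, 3053 and 2478 in the LacZ libraries. Its partner KRT5 had 2437, 2688 and 2829.7 normalized counts in RBMS3 cells, against 3212, 1503 and 3392 in LacZ cells, and did not pass, but without LacZ replicate 2 it was lower (-0.32, limma adjusted p = 0.025). KRT17, at 2962, 2930.5 and 3086 in the RBMS3 libraries and 2598, 3183 and 2846 in the LacZ libraries, did not pass either. Of 14 tested keratins 3 were higher and 6 lower, against 18.6% and 18.9% of all tested genes. The hair keratin KRT81 (0.93) and KRT7 (0.29) were the other higher members, and KRT7 does not keep its direction when libraries are scaled to the ribosomal protein genes (-0.01).

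Of 16 tested transcription factors of epithelial identity 2 were higher and 10 lower (median -2.72). GRHL2, which keeps epithelial genes active, was at 0 in every RBMS3 library, against 139, 456 and 150.3 in the LacZ libraries, where replicate 2 sets much of the mean. TP63, the p53 relative that maintains basal epithelium, had 5.6, 2.46 and 1.79 in RBMS3 cells, against 210.1, 314 and 216 in LacZ cells. SOX15 had 5.37, 9.43 and 4.11 in the RBMS3 libraries, against 1231, 1001 and 1345 in the LacZ libraries, and the ETS factor EHF 0, 0 and 2.4 normalized counts in RBMS3 cells, against 132, 302 and 167 in LacZ cells. OVOL1, a repressor of mesenchymal genes, had a log2 difference of -5.11. These 5 genes were named under the condition that no RBMS3 library overlaps a LacZ library. The 2 higher members were TBX3, a T-box factor of mammary development, and GATA3, a luminal factor. TBX3 had 1286, 1304 and 1247 in the RBMS3 libraries and 272, 169 and 261 in the LacZ libraries, and GATA3 had 239.6, 345 and 349 in RBMS3 cells, against 147, 61.4 and 114 in LacZ cells.

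Among 22 tested mesenchymal transcription factors 11 were higher and 2 lower. ZEB1 had 424, 405 and 408 in the RBMS3 libraries, against 20.4, 14.5 and 16.7 in the LacZ libraries, and ZEB2 had 115, 106 and 65.5 normalized counts in RBMS3 cells, against 5.74, 10.2 and 12.8 in LacZ cells. TWIST1, a helix-loop-helix factor of mesoderm, had 717, 579.5 and 690.0 in the RBMS3 libraries and 51.5, 58.5 and 36.4 in the LacZ libraries. NR2F1, an orphan nuclear receptor, had 488, 474 and 437 in RBMS3 cells, against 38.1, 29.7 and 32.6 in LacZ cells, and TBX18, a T-box factor of developing mesenchyme, 82.7, 88.3 and 88.3 in the RBMS3 libraries, against 25.4, 11.8 and 0.835 in the LacZ libraries. Without LacZ replicate 3 TBX18 did not pass (2.25, limma adjusted p = 0.10). All 5 were named under the condition that the libraries of the lines do not overlap. SNAI1 was at most 2.15 in any of the 6 libraries and was not tested. SNAI2 had 354, 367 and 403 normalized counts in RBMS3 cells, against 615, 215 and 583 in LacZ cells, and did not pass, with LacZ replicate 2 below all others (-0.68 without it, limma adjusted p = 0.14).

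Of 18 tested regulators of epithelial or mesenchymal splicing 3 were higher and 5 lower, against 18.6% and 18.9% of all tested genes. ESRP1, which enforces epithelial exon choice, was at 0 in every RBMS3 library and at 937, 758 and 1016 in the LacZ libraries, at least 297-fold lower. Its relative ESRP2 remained at 61.9, 50.6 and 37.7 in the RBMS3 libraries and 179.5, 197 and 128 in the LacZ libraries. QKI, which promotes mesenchymal exon choice, was higher by 0.52 but did not pass without RBMS3 replicate 1 or 2 or any 1 of the LacZ libraries (limma adjusted p of 0.071 to 0.17). NOVA2, a splicing factor of neurons, was higher by 3.89, and RBFOX2 did not pass, at 612 ± 134 in RBMS3 cells, against 697 ± 93.1 in LacZ cells. Reads at the 3' end do not show which exons were used.

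**Figure D3:**
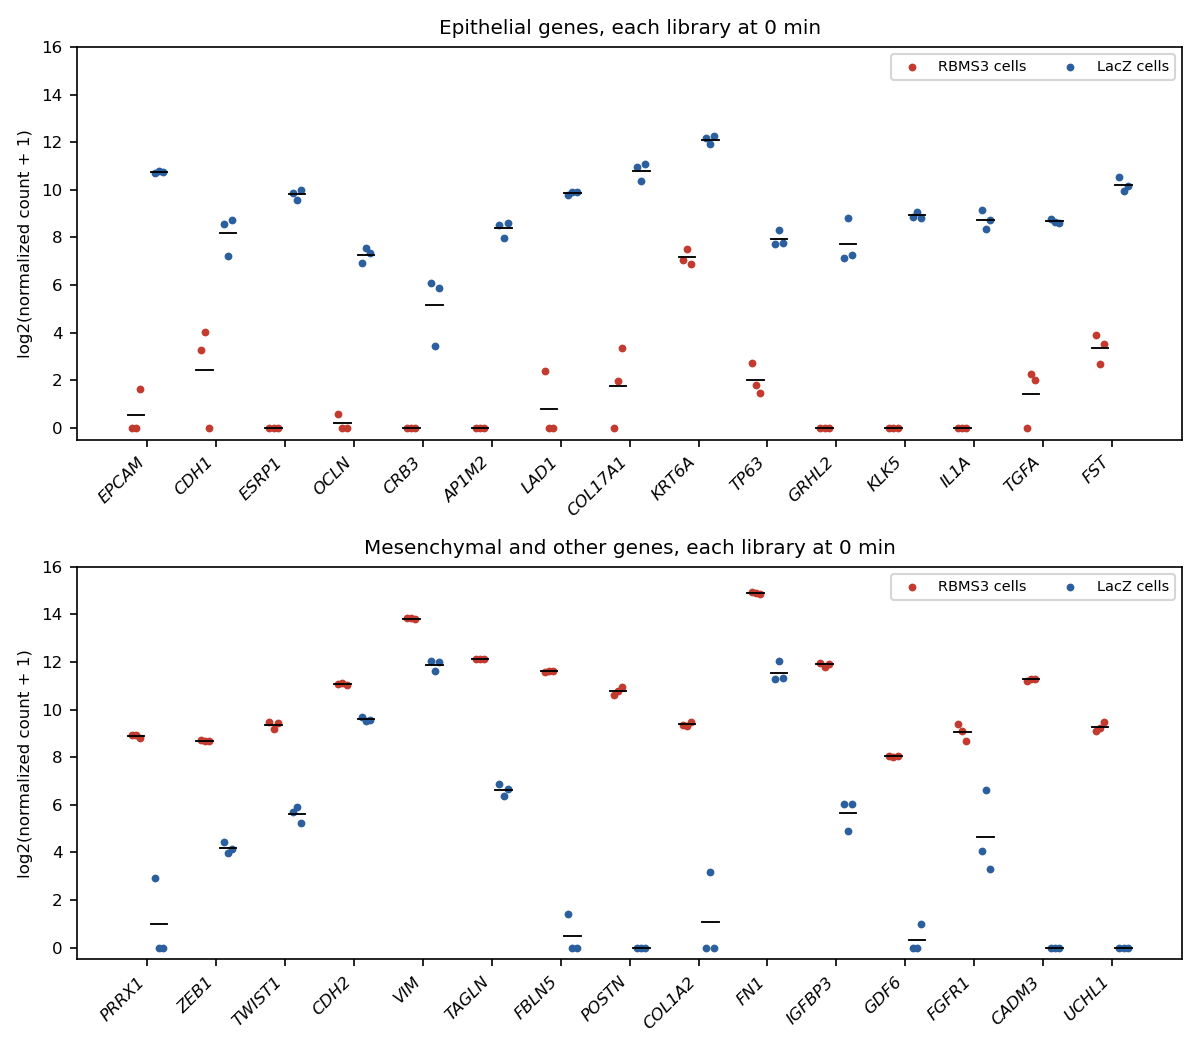
Each library's value, as log2(normalized count + 1), for 15 epithelial genes (upper panel) and 15 mesenchymal or other genes (lower panel) at 0 min. Red points on the left of each pair are the 3 RBMS3 libraries, blue points on the right the 3 LacZ libraries, and black bars their means. The groups do not overlap in any gene shown, which was a condition for naming most of them. In FGFR1 LacZ replicate 2 stands above the other LacZ libraries.

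Extracellular matrix genes were higher in RBMS3 cells. Of 29 tested matrix glycoprotein genes 21 were higher and 2 lower, with a median of 1.82, and without LacZ replicate 2 the counts were 18 and 1. FBLN5, which organises elastic fibres, had 3082, 3190.2 and 3150.2 in RBMS3 cells, against 1.65, 0 and 0 in LacZ cells. POSTN, or periostin, a secreted adhesion protein of remodelling tissue, had 1557, 1778 and 1991 in the RBMS3 libraries and no reads in LacZ cells, at least 625-fold higher. NID1, which bridges laminin and collagen IV, had 506, 536 and 506 in RBMS3 cells and 0 in each LacZ library, at least 182-fold higher. FN1, or fibronectin, was already abundant in LacZ cells, with 31863, 30780.2 and 29284 in the RBMS3 libraries, against 2514, 4204 and 2572 in the LacZ libraries, a 9.89-fold ratio of the means. LAMA4, a laminin chain of mesenchyme, was higher by 4.35, the opposite direction to LAMA3. CCN2 and CCN1, secreted regulators of matrix that respond to YAP, were higher by 3.59 and 2.21. The calcium-binding matrix gene SMOC1 was lower, at 1.07, 5.66 and 0 normalized counts in RBMS3 cells, against 62.2, 54.3 and 64.2 in LacZ cells.

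Collagens followed the same direction, with 12 of 21 tested genes higher and 2 lower (median 1.46). COL1A1, a chain of type I collagen, had 2557, 2445 and 2546 in the RBMS3 libraries and 61.1, 38.2 and 46.4 in the LacZ libraries. COL1A2, the other chain, had 661, 626 and 718 in RBMS3 cells, against 0, 8.08 and 0 in LacZ cells. COL5A2, a chain of type V collagen that sets fibril width, had 556, 578 and 554 in the RBMS3 libraries, against 20.9, 4.78 and 19.4 in the LacZ libraries, and COL4A4 had 315, 328 and 301 in the RBMS3 libraries and no reads in the LacZ libraries, at least 111-fold higher. COL3A1 had 2000.1, 169 and 171 in the RBMS3 libraries and 0 in each LacZ library, so that replicate 1 sets most of its mean. COL13A1 and COL27A1 were the lower members (-3.16 and -1.74). Of 25 genes that fold, hydroxylate, cut and crosslink collagen, 19 were higher and 3 lower (median 1.17). The crosslinking enzyme LOX had 521, 474 and 504 normalized counts in RBMS3 cells, against 35.2, 34.8 and 48.2 in LacZ cells. The procollagen helper PCOLCE, the hydroxylase genes P4HA3 and P3H3 and the protease TLL1 were higher by 4.02, 4.25, 3.99 and 3.18.

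Of 20 listed elastic fibre and microfibril genes 11 passed the filter and were tested, with 7 higher and 1 lower (median 2.36). FBN1, or fibrillin-1, had 1150.1, 1193 and 1164 in the RBMS3 libraries and 6.95, 6.25 and 13.4 in the LacZ libraries, and LTBP1, which stores latent TGF-beta in the matrix, had 635, 519.8 and 455 in RBMS3 cells, against 0.588, 0.726 and 17.6 in LacZ cells. MFAP2, a microfibril protein, was the lower member (9.64, 0.941 and 3.07 in the RBMS3 libraries, against 75.3, 27.6 and 52.6 in the LacZ libraries). Of 18 tested proteoglycan and hyaluronan genes 9 were higher and 4 lower. The small leucine-rich proteoglycans BGN and DCN were nearly absent from LacZ cells. BGN had 1452, 1639 and 1542 normalized counts in RBMS3 cells, against 1.66, 0 and 0 in LacZ cells, and DCN had 171, 160.4 and 172 in the RBMS3 libraries and 3.46, 0 and 0 in the LacZ libraries. GPC6 and SDC3, which carry heparan sulfate, were higher by 6.36 and 5.20, whereas SDC1, the syndecan of epithelia, was lower (-2.33). The hyaluronan synthases went in opposite directions. HAS2 had 103, 99.9 and 97.5 in RBMS3 cells, against 8.29, 5.12 and 13.8 in LacZ cells, and HAS3 had 0, 0 and 1.03 in the RBMS3 libraries, against 71.7, 44.8 and 41.3 in the LacZ libraries.

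**Figure D4:**
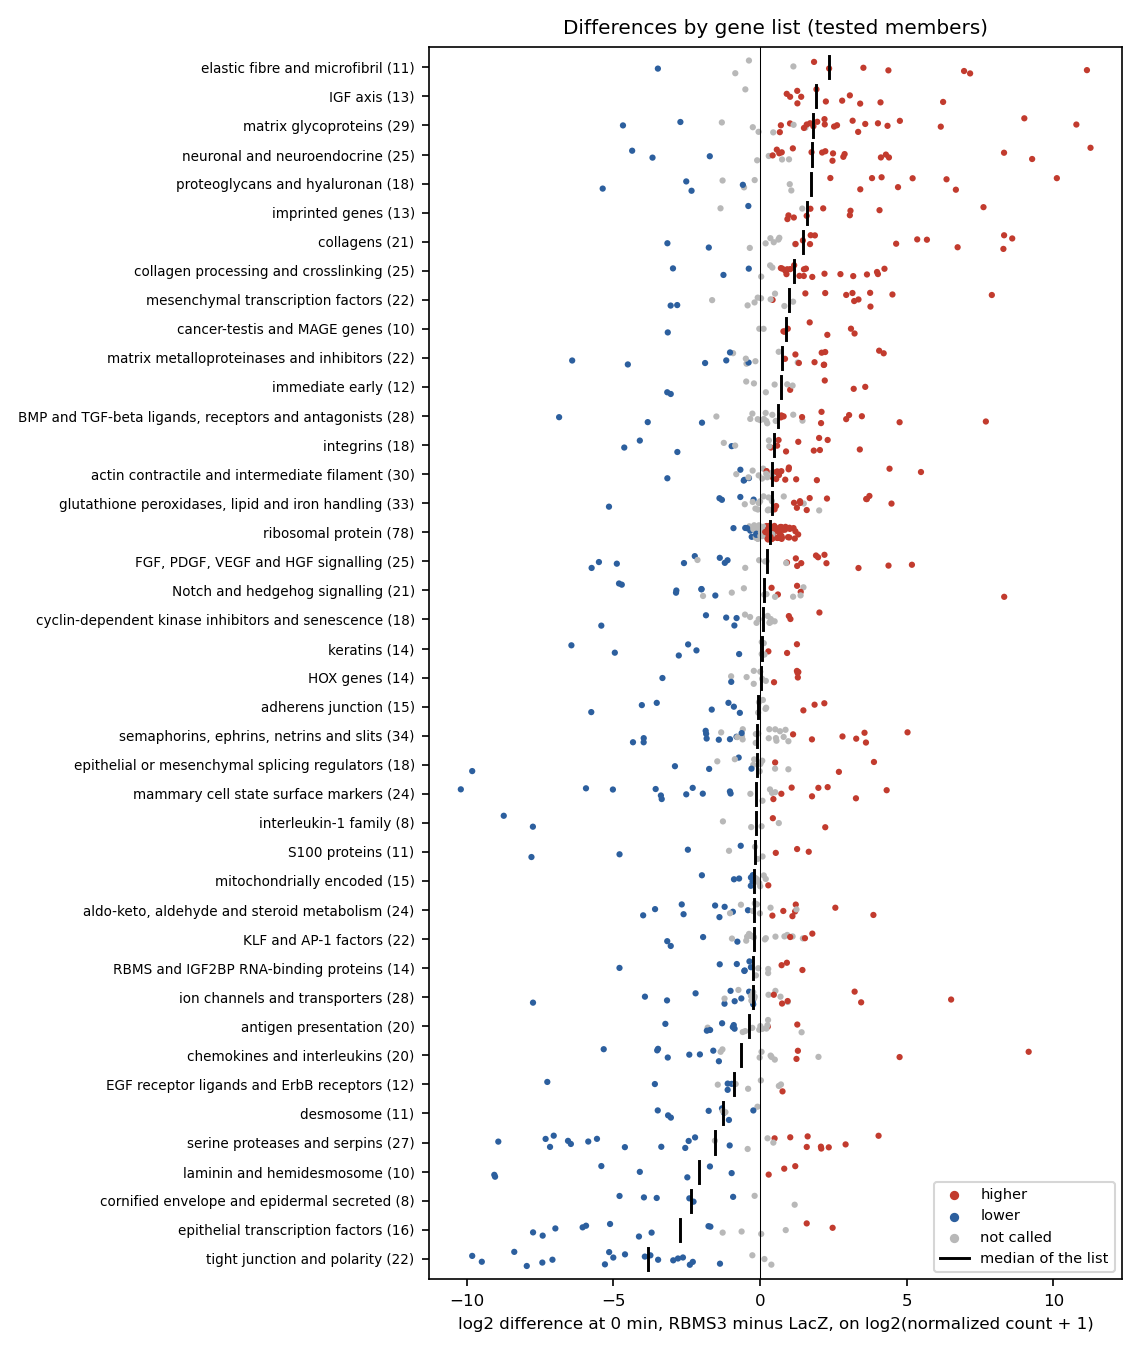
Log2 difference at 0 min (RBMS3 minus LacZ, horizontal axis) of each tested gene in the lists with at least 8 tested members. Lists of cell type markers are not shown. Red points are genes called higher in RBMS3 cells, blue points those called lower and grey points those not called, and the black bars are medians. Medians of the lists shown run from -3.83 for tight junction and polarity genes to 2.36 for elastic fibre genes, and most lists hold members on both sides of 0.

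Proteases and their inhibitors went in both directions. Of 27 serine protease and serpin genes 9 were higher and 14 lower. The kallikreins KLK5, KLK6, KLK7 and KLK8, secreted proteases of skin and glands whose genes lie in 1 cluster, were at 0 in every RBMS3 library. KLK5 had 468, 532 and 454 in the LacZ libraries, at least 159-fold lower in RBMS3 cells. KLK8, KLK7 and KLK6 were at least 55.1-fold, 31.1-fold and 28.8-fold lower. ST14, or matriptase, had 10.7, 0.943 and 1.03 normalized counts in RBMS3 cells, against 559, 441 and 741 in LacZ cells, and its inhibitors SPINT1 and SPINT2 had log2 differences of -3.36 and -2.21. SERPINB2, an inhibitor of urokinase, was at 0 in every RBMS3 library, against 181, 90.1 and 133 in the LacZ libraries. The secreted proteases HTRA1 and PRSS23 were higher by 2.35 and 1.63.

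Of 22 matrix metalloproteinases and inhibitors 10 were higher and 6 lower. MMP2, a gelatinase of mesenchymal cells, had 62.4, 80.8 and 71.4 in the RBMS3 libraries and 0, 6.31 and 6.96 in the LacZ libraries, and MMP9, the other gelatinase, had 5.37, 0 and 2.05 in RBMS3 cells, against 262, 184 and 240.2 in LacZ cells. MMP14, which activates MMP2 at the cell surface, was lower (-1.87). The inhibitor TIMP1 had 6785, 6897 and 6896 in the RBMS3 libraries, against 353, 481 and 404 in the LacZ libraries, a 16.6-fold ratio. TIMP2 was higher and TIMP3 lower, with log2 differences of 2.11 and -1.15.

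Integrins, the receptors for matrix, were higher in 10 and lower in 4 of 18 tested genes, and scaling to ribosomal protein genes gave 7 and 4. The epithelial chains ITGB6, ITGB4 and ITGA2 were lower, with log2 differences of -4.63, -4.10 and -2.82. ITGB6, which pairs into a receptor that activates TGF-beta, had 12.8, 6.91 and 25.8 normalized counts in RBMS3 cells, against 426, 251 and 409 in LacZ cells. ITGA5, the fibronectin receptor chain, and ITGA4 were higher by 1.31 and 2.02, and ITGA7, a laminin receptor chain of muscle, by 3.40. ITGB1, the shared beta chain, had 7591, 7603 and 7112 in the RBMS3 libraries and 5535, 4402 and 4992 in the LacZ libraries, a small difference of 0.58.

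In the actin and intermediate filament list 14 of 30 genes were higher and 5 lower, and scaling to ribosomal protein genes gave 8 and 7. TAGLN, an actin-binding protein of contractile cells, had 4438, 4491 and 4501 in RBMS3 cells, against 115, 82.8 and 101 in LacZ cells. MYL9, a myosin light chain of the same cells, had 910.1, 1144 and 995 in the RBMS3 libraries, against 50.6, 39.9 and 49.4 in the LacZ libraries. VIM, the mesenchymal filament vimentin, had 14549, 14588 and 14268 normalized counts in RBMS3 cells, against 4154, 3181 and 4049 in LacZ cells, so LacZ cells already held a high level. TPM4, a tropomyosin, was higher by 1.23. ACTA2, the smooth muscle actin, had 110.1, 109.8 and 113 in the RBMS3 libraries and 67.9, 114 and 67.7 in the LacZ libraries, and did not pass (limma adjusted p = 0.23). CNN1, or calponin, was at 0 in all 6 libraries.

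Growth factor receptors of the same family differed in direction. FGFR1 had 663, 550.5 and 404 in RBMS3 cells, against 15.9, 98.3 and 8.73 in LacZ cells, while FGFR2 had 0.686, 2.76 and 0 in the RBMS3 libraries, against 87.4, 128 and 83.8 in the LacZ libraries. The collagen receptors DDR2 and DDR1 likewise parted. DDR2 had 46.8, 61.2 and 171 normalized counts in RBMS3 cells, against 1.42, 36.4 and 4.22 in LacZ cells, and DDR1 had 170.5, 178 and 143 in the RBMS3 libraries and 1002, 939 and 1019.9 in the LacZ libraries. LacZ replicate 2 was the highest of its line in FGFR1 and DDR2. DDR2 did not pass without RBMS3 replicate 3 (2.81, limma adjusted p = 0.063) or LacZ replicate 1 (2.52, 0.074). PDGFRB, a receptor of pericytes and fibroblasts, had 68.5, 45.6 and 36.6 in RBMS3 cells, against 0, 0 and 1.55 in LacZ cells, and its ligand gene PDGFB had 1.07, 25.5 and 5.13 in the RBMS3 libraries, against 246, 159 and 216 in the LacZ libraries. Over the list of FGF, PDGF, VEGF and HGF signalling 11 of 25 were higher and 8 lower. The EGF receptor list had 1 of 12 higher and 5 lower (median -0.90). TGFA, a ligand of that receptor, had 0, 3.77 and 3.08 normalized counts in RBMS3 cells, against 434, 400.0 and 392 in LacZ cells, and EGFR itself 859, 701 and 787 in the RBMS3 libraries and 1588, 1432 and 1553 in the LacZ libraries. ERRFI1, which inhibits the receptor, was the higher member (0.77) but did not pass under ribosomal scaling (0.47, limma adjusted p = 0.068), and the ligand AREG was lower (-1.10).

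In the BMP and TGF-beta pathways 12 of 28 tested genes were higher and 3 lower. GDF6, a BMP-family ligand, had 266, 256 and 261 in RBMS3 cells, against 0, 0 and 0.988 in LacZ cells. The BMP targets ID1, ID2 and ID3, which block helix-loop-helix factors, were higher by 3.04, 4.76 and 2.94. ID1 had 5424, 5197 and 5548 in the RBMS3 libraries, against 839, 367 and 910.3 in the LacZ libraries. SMAD9, a BMP-pathway SMAD, was higher by 3.47. FST, or follistatin, which binds and neutralises activin and some BMPs, had 14, 5.46 and 10.3 normalized counts in RBMS3 cells, against 1472, 993 and 1141 in LacZ cells. INHBA, the activin A subunit, had 183, 152 and 196 in the RBMS3 libraries and 2726, 2625 and 2207 in the LacZ libraries. Of the TGF-beta ligands TGFB1 was higher by 0.71, and TGFB2, at 166, 116 and 81.9 in RBMS3 cells, against 139, 137 and 143 in LacZ cells, did not pass.

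In the insulin-like growth factor (IGF) axis 13 of 20 listed genes passed the filter and were tested. Limma called 12 of these 13 higher and none lower (median 1.93). At an unadjusted p under 0.05, 1 was lower. Scaling to ribosomal protein genes gave 10 higher and 1 lower, and without LacZ replicate 2 the counts were 10 and 0. IGFBP3, a binding protein that holds the growth factors in the medium, had 3968, 3549.8 and 3912 in the RBMS3 libraries, against 64, 29.1 and 63.7 in the LacZ libraries, a 72.9-fold ratio. IGFBP4, IGFBP2 and IGFBP6 were higher by 4.11, 3.42 and 2.80. IRS2, which relays insulin and IGF signals, had 1404, 1397 and 1477 normalized counts in RBMS3 cells, against 387, 194 and 359 in LacZ cells. IGF2, a ligand, had 36.5, 33 and 38 in the RBMS3 libraries and 4.98, 6.15 and 0.989 in the LacZ libraries, and IGF1R was higher by 0.91 but did not pass without RBMS3 replicate 1 (0.49, limma adjusted p = 0.30) or any 1 of the LacZ libraries (0.077 to 0.095).

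Of 21 tested Notch and hedgehog genes 5 were higher and 7 lower, and 2 and 6 without LacZ replicate 2. The shares of all tested genes were 18.6% and 18.9%. The Notch ligands JAG1 and JAG2 were lower. JAG1 had 132, 73.5 and 109 in RBMS3 cells, against 769, 695 and 779 in LacZ cells, and JAG2 had 4.9, 6.03 and 12.2 in the RBMS3 libraries, against 208, 213 and 265 in the LacZ libraries. HHIP, which binds and blocks hedgehog ligands, had 799, 1144 and 1377 normalized counts in RBMS3 cells, against 5, 5.35 and 0 in LacZ cells. Among 34 guidance molecules 7 were higher and 10 lower, with the higher share near that of all tested genes. The ephrin receptor EPHB6 and the slits SLIT2 and SLIT3 were higher by 5.03, 3.56 and 3.28, and SEMA3A and EPHA1 had log2 differences of -3.96 and -4.33.

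Of 8 tested interleukin-1 family genes 2 were higher, 2 lower and 4 not called, against 18.6% higher and 18.9% lower of all tested genes. Their median was -0.12, and the summed level of the family was 1003 to 1134 in RBMS3 cells, against 1467 to 2124 in LacZ cells. The lower members were the cytokines themselves. IL1A was at 0 in every RBMS3 library and at 561, 323 and 424 in the LacZ libraries, at least 143-fold lower, and IL1B had 1.07, 4.71 and 0 in the RBMS3 libraries and 534, 399.7 and 539 in the LacZ libraries. Their receptor gene IL1R1 went the other way, at 241, 233 and 243 in RBMS3 cells, against 53.8, 86.8 and 27.1 in LacZ cells (2.23). Of 20 chemokines, interleukins and their receptors 4 were higher and 8 lower. CXCL5, a neutrophil chemokine, had 501, 388 and 515 in the RBMS3 libraries, against 14.9, 20.5 and 13.8 in the LacZ libraries, whereas CXCL16 and IL32 were lower (-3.14 and -2.05). The scavenging chemokine receptor ACKR1, best known from red cells and venules, had 522, 591 and 606 in RBMS3 cells and 0 in each LacZ library, at least 202-fold higher. Of 20 antigen presentation genes 2 were higher and 7 lower, and the genes of the peptide transporter and immunoproteasome TAP1, TAPBP and PSMB9 had log2 differences of -0.89, -0.93 and -1.29. B2M, the light chain of class I molecules, was higher, at 8416, 8993 and 9128 normalized counts in RBMS3 cells, against 4199, 2720.4 and 4285 in LacZ cells.

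Surface markers used to sort mammary cell states were higher in 8 and lower in 11 of 24. CD24 had 11, 8.89 and 9.68 in the RBMS3 libraries and 511, 1111 and 507 in the LacZ libraries, and CD44 had 1224, 1424 and 1353 in RBMS3 cells, against 6996, 8572 and 7318 in LacZ cells, so that both were lower in RBMS3 cells. The TNF-family ligand CD70 was lower too, with a log2 difference of -3.38. MME, or CD10, a protease of myoepithelial and stromal cells, had 348, 285 and 269 in the RBMS3 libraries, against 38.5, 27.4 and 25.6 in the LacZ libraries, and THY1, or CD90, was higher by 1.99. MUC1, an epithelial mucin, was higher with a wide spread, at 99.4, 103 and 348 normalized counts in RBMS3 cells, against 3.79, 4.68 and 15.9 in LacZ cells. CD9 had 431, 285 and 410.0 in the RBMS3 libraries and 1059, 32.7 and 1191 in the LacZ libraries, where replicate 2 lay far below the others. It did not pass (limma adjusted p = 0.95), but without that library it was lower (-1.60, limma adjusted p = 3.3e-04).

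Markers of other cell types were read to check the label. LacZ cells held the basal markers KRT5, KRT14, KRT17 and TP63 given above and luminal KRT8 and KRT18, while the luminal markers KRT19, ESR1 and PGR were at most 5.70 in any of the 6 libraries. Of 15 tested basal markers 1 was higher and 8 lower, and their summed level was 14777 to 15434 in RBMS3 cells, against 17504 to 18712 in LacZ cells. Of 8 tested luminal markers 2 were higher and 6 lower, with a summed level of 4027 to 4648 in RBMS3 cells, against 9547 to 11011 in LacZ cells. Of 16 listed fibroblast markers 11 were tested, and all 11 were higher, or 10 under ribosomal scaling. The list's summed level was 10689.7 to 11865 in RBMS3 cells, against 1081 to 1438 in LacZ cells. A marker near 0 in LacZ cells could enter the test only through a high level in RBMS3 cells. The count of higher markers is therefore partly fixed by the filter. Of that list's defining members LUM and TCF21 were at 0 in all 6 libraries, and PDGFRA was at 16.4, 19.2 and 1.91 in RBMS3 cells and 0 in LacZ cells. These fibroblast markers overlap the matrix lists above, and the part of other cells in those lists was not tested. Of 7 tested pericyte and smooth muscle markers 2 were higher, with a summed level of 5445 to 5676 in RBMS3 cells, against 677 to 753 in LacZ cells. TAGLN makes up most of that sum in RBMS3 cells and MCAM in LacZ cells, and DES was at 0 in all 6 libraries. Of 12 endothelial markers only ACKR1 was abundant enough to test, and CDH5, VWF and TEK were at 0 throughout. The pan-leukocyte gene PTPRC was at 0 throughout, and the summed leukocyte markers were 37.4 to 58.1 in RBMS3 cells, against 50.8 to 82.5 in LacZ cells.

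Of 42 listed genes best known from neurons 25 were tested, and 18 of these were higher and 3 lower (median 1.76). Members at 0 in LacZ cells could enter the test only through RBMS3 cells. The count and the median are therefore partly fixed by the filter. CADM3, a nectin-like adhesion molecule of the nervous system, had the largest rise of the genes named here, with 2372, 2529.6 and 2506 in the RBMS3 libraries and 0 in each LacZ library, at least 869-fold higher. UCHL1, a deubiquitinase of neurons, and RTN1, a reticulon of the endoplasmic reticulum, were also at 0 in every LacZ library. UCHL1 had 553, 599.6 and 721 in the RBMS3 libraries, at least 219.8-fold higher, and RTN1 had 303, 322 and 333, at least 112-fold higher. The tubulin TUBA1A had 629, 587 and 622 in RBMS3 cells, against 32.3, 10.2 and 65.1 in LacZ cells. DPYSL3, a growth cone protein, was higher by 4.12. CADM1, a relative of CADM3, went the other way, at 11.5, 7.38 and 12.4 in the RBMS3 libraries, against 196, 306 and 198 in the LacZ libraries. The neuronal marker SNAP25 and SOX10, a factor of neural crest and glia, were at 0 throughout. MBP, a myelin gene, had 21.8, 103 and 28.3 normalized counts in RBMS3 cells, against 413, 321 and 416 in LacZ cells.

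Imprinted genes are read from the copy of a single parent. Of 22 listed 13 passed the filter and were tested, with 10 higher and 1 lower (median 1.59). MEG3, a long noncoding RNA, had 195, 283 and 242 in the RBMS3 libraries and 0, 0 and 0.772 in the LacZ libraries, and MEG8 from the same locus was higher by 1.72. SNRPN had 853, 765 and 847 in RBMS3 cells, against 177, 201 and 174 in LacZ cells, and DIRAS3, a growth-restraining GTPase, 45.1, 56.4 and 56.6 in the RBMS3 libraries, against 12.4, 1.4 and 6.75 in the LacZ libraries. PHLDA2, which limits placental growth, was the lower member (-0.40). Of 10 tested MAGE and BEX genes 7 were higher and 1 lower, with MAGED1 at 1009.8, 972 and 1145 normalized counts in RBMS3 cells, against 112, 89.1 and 173 in LacZ cells.

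D-type cyclins, which drive entry into the cell cycle, were lower in RBMS3 cells. CCND2 had 99.1, 30.8 and 72 in the RBMS3 libraries and 2484, 2443 and 2933 in the LacZ libraries, a 38.9-fold lower mean, and CCND1 and CCND3 had log2 differences of -0.87 and -0.80. The inhibitor CDKN2C was higher and CDKN1A lower, with log2 differences of 2.03 and -1.84. CDKN2A had 1183, 1098 and 1293 in RBMS3 cells, against 894, 237 and 909.9 in LacZ cells, and its call rests on LacZ replicate 2 (0.40 without it, limma adjusted p = 0.057). Of 18 tested genes of this list 3 were higher and 5 lower, against 18.6% and 18.9% of all tested genes. Of 14 tested HOX genes, which mark position along the body, 5 were higher and 2 lower, and 3 and 1 without LacZ replicate 2. HOXC8 was among the higher ones, at 357, 280.0 and 326 in the RBMS3 libraries, against 137, 151 and 109 in the LacZ libraries.

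Several abundant transcripts that differed code for calcium-binding and metal-binding proteins. S100A6 had 12129, 12346 and 12497 normalized counts in RBMS3 cells, against 5583, 1783 and 5908 in LacZ cells, and S100A2, an S100 protein of basal epithelium, 4361, 4761 and 4598 in the RBMS3 libraries and 26202, 22290.0 and 27086 in the LacZ libraries. S100A14 had 8.59, 7.54 and 3.08 in RBMS3 cells, against 1493, 1434 and 1689.7 in LacZ cells. The metallothionein MT2A, the most abundant of its family, had 168959, 170039 and 176840.0 in the RBMS3 libraries, against 131083, 97915 and 125672 in the LacZ libraries, and the smaller differences of that family are near the shift between scalings. In metabolism, NNMT, which methylates nicotinamide, had 2036, 2099.8 and 2070.3 normalized counts in RBMS3 cells, against 108, 162 and 160.0 in LacZ cells, and ALDH1A3, a retinaldehyde dehydrogenase, 17.4, 22 and 25.8 in the RBMS3 libraries and 329, 406 and 332 in the LacZ libraries. The glutathione synthesis genes GCLM and GCLC were lower, with log2 differences of -1.53 and -1.38. The caveolar coat gene CAVIN2 and the desaturase gene FADS1 were higher by 3.64 and 2.29. Among channels, the potassium channel KCNK2 had 109.6, 124 and 133 in RBMS3 cells, against 0, 0 and 1.43 in LacZ cells, KCNMA1 had 1051, 1251 and 1060.1 in the RBMS3 libraries, against 123, 66 and 128 in the LacZ libraries, and the chloride channel ANO1 was at 0 in every RBMS3 library, against 222, 169.7 and 254 in the LacZ libraries.

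Of 78 ribosomal protein genes 49 were higher and 7 lower as deposited, and 26 and 24 when scaled to their own sum. Of 15 mitochondrially encoded genes 1 was higher and 7 lower (median -0.20), and under the other scaling limma called 13 lower and none higher, also at an unadjusted p under 0.05 (median -0.50). MT-ND6, the gene on the opposite strand of the mitochondrial genome, had 405, 405 and 375 normalized counts in RBMS3 cells, against 1523, 1613 and 1542 in LacZ cells, and MT-CO1, higher by 0.28 as deposited, turned to -0.02.

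Small differences were not spread evenly over the chromosomes. Genes on chromosome 15 had a median difference of 0.62, with 41.7% of 398 tested genes higher and 5.03% lower, and those on chromosomes 11 and 18 had medians of 0.33 and 0.32. Genes on chromosomes 9, 1 and 6 had medians of -0.26, -0.24 and -0.23. Each RBMS3 library set against the LacZ mean gave 0.63 to 0.64 for chromosome 15, and the RBMS3 mean set against each LacZ library gave 0.55 to 0.71. Chromosome 8 was split by position, with 3 runs of 50 neighbouring tested genes at medians of 0.43, 0.55 and 0.55, followed by runs at -0.71 and -0.65. Over 225 such runs along the genome, 13 had medians above 0.5 and 4 below -0.5, and all of these had the same sign at 360 min, in separate libraries. The interquartile range of the run medians was -0.20 to 0.17. Scaled to the ribosomal protein genes, chromosome 15 had a median of 0.33 and the median over all genes was -0.29. The DNA of the lines was not measured.

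**Figure D5:**
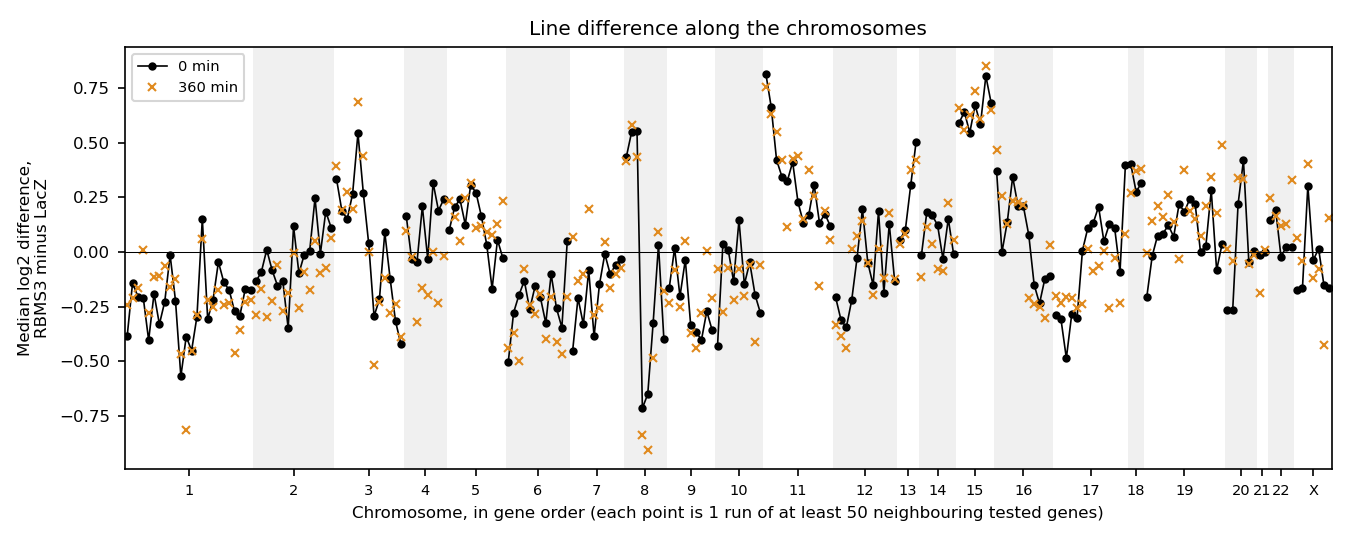
Median log2 difference (RBMS3 minus LacZ, vertical axis) in runs of at least 50 neighbouring tested genes, in gene order along each chromosome. Black points joined by lines are the 6 libraries at 0 min and orange crosses the separate libraries at 360 min. Chromosome 15 lies above 0.5 along its whole length, and chromosome 8 changes from 0.55 to -0.71 between neighbouring runs.

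The difference before actinomycin D was then set against that at 360 min, in libraries that share no sample with it. Of the 279 genes higher by 3 or more at 0 min, 234 were called higher at 360 min too and 3 were called lower, and of the 321 genes lower by 3 or more, 286 were called lower and 1 higher. The change in the line difference itself was tested as 0 min minus 360 min. It was positive in 418 genes (3.46%) and negative in 522 (4.32%) at a limma adjusted p under 0.05, against 282 and 855 with libraries scaled to ribosomal protein genes. Among the large differences it was called in 35 of the 279 higher genes and was larger at 0 min in 34 of them. It was called in 29 of the 321 lower genes, with 25 larger at 0 min. These genes were picked for a large difference at 0 min, which by itself favours a larger value at that time. The split therefore cannot show which way large differences moved. TIMP1 differed by 4.06 at 0 min and by 2.62 at 360 min (limma adjusted p of the change = 2.8e-06), and SOX15 by -7.41 and -4.58 (3.8e-05). FN1 differed by 3.35 and 2.38 (0.0027), CDH2 by 1.48 and 2.24 (3.2e-04), and CDH3 by -4.03 and -9.06 (0.0028). For VIM, ESRP1 and UCHL1 the change did not pass, with adjusted p of 0.93, 0.82 and 0.92 in limma.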

How the data were processed

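RNA was measured by 3' mRNA sequencing (QuantSeq, single reads of 75 bases) in 24 libraries. The submitters' processing notes name Salmon 1.4.0, Trim Galore 0.6.6 and DESeq2 1.32.0, with no role for each, and no source used here gives a genome build. The deposited table holds a signal per gene, that is reads normalized by the authors in a way the sources used here do not describe (normalized counts), with ratios to the estimated reads that differ between genes. Its values are not whole reads, so that no count test was run. The deposited transcript files hold estimated counts made by the authors with Salmon, per the file headers. They served to check labels, depth and the values of LacZ replicate 2, and no test was run on them, because 12 of 24 are named for another sample than the one they are attached to. All 24 correlated best with the table column of their own name over 11824 genes (Pearson r of 0.860 or higher, next best 0.726 or lower), so columns were matched to samples by title.

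For each gene limma 3.58.1 (R 4.3.3, trend on) tested the difference on log2(normalized count + 1), over 12096 of 38849 genes with a mean of at least 10. All 24 libraries entered in 8 group means, with Benjamini-Hochberg adjustment at 0.05. The procedure was tested on simulated data. Genes were named by rule, starting with RBMS3 and PRRX1 and the 20 largest changes each way. For those changes the higher group averaged 50 or more and the libraries did not overlap. Up to 6 members for each of 52 gene lists were named under the same conditions. The 5 largest changes each way between 0 and 360 min were named too. Defining members of a list were named whether or not they passed, and 2 tested genes, 1 of them among the largest rises, are not reported here. The libraries compared, the lists and the rules were chosen with earlier results of these data known. Alternatives were other scalings, pseudocounts and filters, robust and weighted fits, the replicate number as a block, fewer libraries, and leaving out each library. E-box counts used RefSeq promoters on GRCh38.p14.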

Additional observations from a re-analysis of the deposited data

Results flagged for a closer look

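In 10 genes the difference between the lines at 0 min itself differed from that at 360 min, by limma's test of the change (adjusted p under 0.05). They are the 5 largest changes in each direction among genes with a mean of at least 50 in some group. Values are normalized counts in the 3 libraries of each line, and a change is the log2 difference at 0 min minus that at 360 min.

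CA9, a carbonic anhydrase induced by low oxygen, had 185, 169 and 298 in RBMS3 cells and 21.4, 0 and 14.8 in LacZ cells at 0 min. At 360 min it had 10.8, 5.4 and 3.19 in RBMS3 cells and 25.8, 33.7 and 54.8 in LacZ cells, a change of 7.36. C1R, a protease of the complement cascade, had 184, 153 and 246 in RBMS3 cells and 12.2, 5.56 and 4.45 in LacZ cells at 0 min. Its values at 360 min were 16, 4.72 and 7.99 in RBMS3 cells and 11.5, 15.2 and 11.5 in LacZ cells, a change of 5.13. E2F5, a repressor of the cell cycle, had 90.1, 55.1 and 76.8 in RBMS3 cells and 32.5, 4.74 and 28 in LacZ cells before the drug. It had 2.92, 14 and 5.3 in RBMS3 cells and 116, 103 and 105 in LacZ cells at 360 min, a change of 5.97. The difference of E2F5 at 0 min, 2.05, did not pass without LacZ replicate 2 (1.24, limma adjusted p = 0.19). It also did not pass without RBMS3 replicate 1 or 3 (limma adjusted p of 0.086 and 0.069). ZNF286B and SGSM1 changed by 7.08 and 5.69, and in both the RBMS3 libraries at 0 min spread widely, at 52.6, 6.6 and 44.1 for ZNF286B and 119, 16.2 and 27.5 for SGSM1.

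TBL1X, a subunit of a corepressor complex, had 64.8, 88.3 and 79.6 in RBMS3 cells and 8.34, 12.3 and 2.99 in LacZ cells at 0 min, and 690.2, 674 and 724 in RBMS3 cells and 6.17, 9.69 and 0 in LacZ cells at 360 min, a change of -4.06. FAM71F2 had 2.43, 8.98 and 3.73 in RBMS3 cells and 65.7, 61.6 and 52.7 in LacZ cells at 0 min, and the reverse order at 360 min, with 84.5, 65.3 and 35.6 in RBMS3 cells and 2.32, 0.873 and 0 in LacZ cells, a change of -8.49. FOXA2, a forkhead factor of endoderm, was at 0 in every RBMS3 library at both times, with 67.9, 86.3 and 63.2 in LacZ cells at 0 min and 3.11, 10.7 and 0 at 360 min, a change of -4.32. PGPEP1, a peptidase, changed by -4.38, with RBMS3 replicate 1 far above the other RBMS3 libraries at both times. IPO5P1 changed by -4.31, and its value rests on RBMS3 replicate 3 at 360 min, which had 399 normalized counts, against 0.887, 5.01 and 2.01 in the LacZ libraries at that time.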

How the results depend on the processing

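With 1 library left out at a time, limma called 1913 to 2219 genes higher and 2014 to 2202 lower at 0 min, and 311 to 506 and 375 to 596 for the change between 0 and 360 min. Scaling to the ribosomal protein genes gave 1345 higher and 3816 lower at 0 min and 855 negative changes, and MT-CO1 turned to -0.016. With only the libraries at 0 min, 1486 genes were higher, and with only those at 0 and 360 min the change was positive in 211 genes and negative in 244. These smaller fits estimate the spread from fewer libraries. Same-numbered libraries of the lines did not deviate together (r of 0.013, 0.055 and 0.022), and not every library correlated best with its own number. The replicate block gave 2240 higher and 2288 lower genes at 0 min. Of 263 called genes named by rule, 21 no longer passed with only the libraries at 0 min, and 13, 8 and 14 without RBMS3 replicate 1, 2 and 3, against 10, 14 and 6 without LacZ replicate 1, 2 and 3. The number was 13 under ribosomal scaling, 8 with library weights and 6 with no filter on low values. All 263 passed with a pseudocount of 5 or median ratio scaling, and all 217 with a value at a mean of at least 50 passed there. Depth limits genes with few reads, for which a value of 0 in 1 line gives only a bound.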

Other observations

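Further genes among the largest changes lay outside the groups described above. FRMD3, a protein of the membrane skeleton, had 582, 588 and 498 in the RBMS3 libraries and 2.5, 1.98 and 0 in the LacZ libraries. SSBP2, a DNA-binding partner of LIM-domain factors, had 1869, 457 and 629.7 in RBMS3 cells, against 3.37, 6.4 and 2.78 in LacZ cells, and NREP, a small protein first described in regenerating nerve, had 1347, 1364 and 1326 in the RBMS3 libraries, against 4.75, 15.6 and 9.44 in the LacZ libraries. Among the falls, HOOK1, which tethers endosomes to microtubules, had 0, 0 and 1.74 normalized counts in RBMS3 cells, against 315, 387 and 293 in LacZ cells. EPN3, an endocytic adaptor of epithelia, had 0 in every RBMS3 library and 203, 199.8 and 190.4 in the LacZ libraries, and MAP7, which recruits kinesin to microtubules, had 8.33, 0 and 3.03 in RBMS3 cells, against 431, 758 and 494 in LacZ cells. ADGRG1, an adhesion receptor coupled to G proteins, differed by -7.42 on the log2 scale. That the RBMS3 and LacZ libraries do not overlap was a condition for naming these 7 genes.

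Of 8 tested genes of the cornified envelope and epidermal secretions, limma called 6 lower and none higher, and 1 was higher at an unadjusted p under 0.05. CSTA, a cysteine protease inhibitor of the upper epidermis, had 92.3, 112 and 192 in the RBMS3 libraries, against 664, 826 and 552 in the LacZ libraries. Immediate early genes, which respond to growth signals within minutes, were higher in 4 and lower in 2 of 12. Over all tested genes 18.6% were higher and 18.9% lower. DUSP1, a phosphatase that turns off stress kinases, had 273, 215 and 282 normalized counts in RBMS3 cells, against 22.4, 19.5 and 44.5 in LacZ cells, and EGR1, a zinc finger factor of the same response, was higher by 1.03 but did not pass without any 1 of the 6 libraries (limma adjusted p of 0.074 to 0.13). ATF3, another stress-induced factor, had 7.25, 2.49 and 17.6 in the RBMS3 libraries and 56.8, 95 and 52.9 in the LacZ libraries. In the list of KLF and AP-1 factors 3 of 22 were higher and 4 lower, about the shares of all tested genes, with KLF9, a target of steroid hormone receptors, higher by 1.79. PLTP, which transfers phospholipids between lipoproteins, had 59.4, 50.3 and 48.5 in RBMS3 cells, against 1.67, 4.12 and 0 in LacZ cells. HBEGF, a membrane-anchored growth factor, and NGFR, a receptor of basal and neural crest cells, had log2 differences of -3.58 and -5.87.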
